A study of Mus musculus with 6 samples.

Results

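Introns for which no unspliced read was counted, although at least 500 spliced reads were, numbered 2305 of the 71384 autosomal introns with at least 500 spliced reads. The deposited tables list 219945 introns, of which 209020 are autosomal. Membership was decided on reads summed over 6 libraries: at least 500 reads spliced across the intron, and 0 reads running from exon into intron at either of its ends. The introns were thus chosen by their unspliced and spliced counts, which are not findings about them.

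The study sequenced polyA-selected RNA of mouse embryonic stem cells of the line VGB6, with 3 wild-type libraries and 3 libraries in which Zrsr2 was knocked out. Replicates are titled P2, P3 and P5 in both groups, and are called replicates 2, 3 and 5 here. Nothing in the labels says what the P stands for, or whether the libraries came from separate cultures, clones or passages of 1 culture, so p-values measure the spread between these libraries, which may be technical. The making of the knockout, its number of clones and the culture conditions are not stated in the labels.

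Splicing removes introns from a nascent transcript. The spliceosome recognises the 5′ splice site, the branch point and the 3′ splice site, and most introns are cut out by the major, U2-dependent spliceosome. A small class is removed by the minor, U12-dependent spliceosome, in which ZRSR2 helps to recognise the 3′ splice site. In polyA-selected RNA a read that crosses an exon-intron boundary comes from a transcript that still holds the intron, or part of it, and its rarity describes how completely the intron has been removed from the RNA that was captured.

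Splice sites could be read for 20 of the 2305 introns, those with a site inside a RefSeq promoter window (GRCm38.p6, 250 bases before to 50 after a gene start). All 15 readable 5′ sites began with GT and all 5 readable 3′ sites ended with AG. The introns below were chosen to show both ends of introns in named protein-coding genes, from the intron with the most reads among the 20 to the longest. Capitals mark the first or last 2 intron bases. The 5′ sites are shown with 9 exon and 14 intron bases and the 3′ sites with 25 intron and 5 exon bases.
Copb2, 5′ site of intron 1, chr9:98563824-98567992, plus strand: ggagccatgGTaagtcgggcctc
Zfp277, 5′ site of intron 1, chr12:40378875-40445665, minus strand: atcatgaagGTgagtgtgctgtc
Egln1, 5′ site of intron 1, chr8:124915781-124948232, minus strand: cgaacgaaaGTaagtggctgggg
Pard3, 5′ site of intron 26, chr8:127474616-127593060, plus strand: tggagacagGTaggtgctggcag
Nomo1, 3′ site of intron 3, chr7:46038589-46041468, plus strand: ctctcctttgccggttttcctgcAGagcca
Ktn1, 3′ site of intron 2, chr14:47649440-47663755, plus strand: ctgtcattattgcctcctcatttAGattct
Introns are numbered in transcript order among those listed for the gene, alternative introns included. The usual 5′ sequences of U12-type introns, GTATCCTT and ATATCCTT, read on the intron's own strand, were at 0 of the 15 readable 5′ sites and at 0 of the 790 readable 5′ sites of all introns with at least 500 spliced reads. No match says only that these letters are not at those sites.

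An intron with 0 unspliced reads lay at the low end of a continuous range. Introns with 1, 2, 3, 4 and 5 unspliced reads numbered 2334, 2372, 2136, 2012 and 1831. Their median spliced reads were 867, 909, 993, 1047 and 1046, against 771 for introns with 0. The count of 0 stood on limited depth: 3 unspliced reads, the upper limit that a count of 0 allows at 95% confidence, would be a missplicing index of 0.299% at 500 spliced reads and of 0.194% at the median of 771. This index, as deposited, is the percentage of unspliced reads among unspliced reads plus 2 times the spliced reads. Such limits cover counting error only, since reads amplified from one molecule are not independent. They also apply to an intron fixed beforehand, and are too low for introns chosen because their count was 0.

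**Figure D1:**
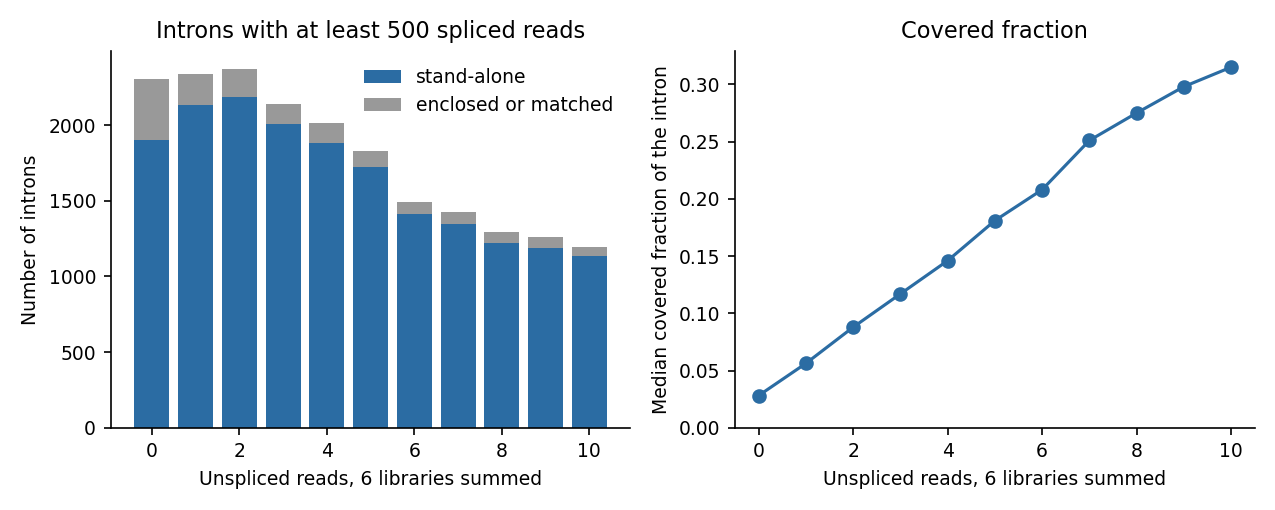
Left, number of autosomal introns with at least 500 spliced reads by their unspliced reads summed over 6 libraries, split into stand-alone introns and introns enclosed by or matched with another listed intron. Right, median covered fraction of the same introns, which runs from 0.0282 at 0 unspliced reads to 0.315 at 10.

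The share of introns with no unspliced read was smaller where spliced reads were more. It was 7.76% of the 14197 introns with 500 to 749 spliced reads, whose median was 14 unspliced reads. It was 3.14% at 1000 to 1499 reads, 0.728% at 2500 to 4999 reads and 0.0548%, or 2 of 3652 introns, at 10000 or more. Of the 2305 introns, 100 had 2500 spliced reads or more. Just inside the threshold were introns of Ptpn13 and Morc1 with 500 reads and of Tbc1d22a with 501. Just outside it, with no unspliced read and 499 spliced reads, were introns of Col1a1, which encodes a fibrillar collagen chain, and of Nfkb2, which encodes a subunit of the transcription factor NF-kappaB. Introns kept out by a single unspliced read included Nudt21, a pre-mRNA cleavage factor, with 9333 spliced reads, and Ass1, the argininosuccinate synthase, with 8825.

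The spliced count of an intron included reads whose gap spanned more than that intron. Among 33085 pairs in which 1 listed intron lay inside another, the inner intron had at least as many spliced reads as the outer one in all 6 libraries in 33085. This held for the 10766 pairs whose outer intron had at least 100 reads, and for the 1415 of these on opposite strands. A spliced count can thus belong wholly to another intron, and the unspliced reads of that splicing event are then counted elsewhere.

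The 2305 introns were divided on this basis, after their values had been seen. In 280 (12.1%) a listed intron that contained them held 50% or more of their reads, and these are called enclosed. The same was true of 3427 (4.96%) of the 69079 other introns with at least 500 spliced reads. In another 126 (5.47%, against 208 or 0.301% of the others) a non-overlapping listed intron within 100 kb had the same counts to within 1%, and these are called matched. The remaining 1899 (82.4%, against 94.7% of the others) are called stand-alone. Enclosed introns with the enclosing intron on the other strand numbered 145 (6.29%), against 347 (0.502%) of the others.

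Lrrtm2, a synaptic adhesion protein gene, illustrates the enclosed class. Its only listed intron had 8054 spliced reads and not 1 base covered in any library, and it lies inside an intron of Ctnna1, the alpha-E-catenin gene, on the other strand, which had 8044. Intron 1 of the serotonin receptor gene Htr2b (chr1:86111117-86111878, minus strand) had 5435 reads, and the intron of Psmd1, a proteasome subunit gene, that contains it had 5424 spliced and 118 unspliced reads. Intron 2 of Gpr146, an orphan receptor gene, had 3904 reads, and intron 1 of the same gene, which contains it, had 3903. Intron 1 in turn lies inside an intron of 3110082I17Rik on the other strand, which had 3882 spliced and 110 unspliced reads. In these 3 genes nearly all spliced reads of the inner intron were counted for the enclosing intron too.

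**Figure D2:**
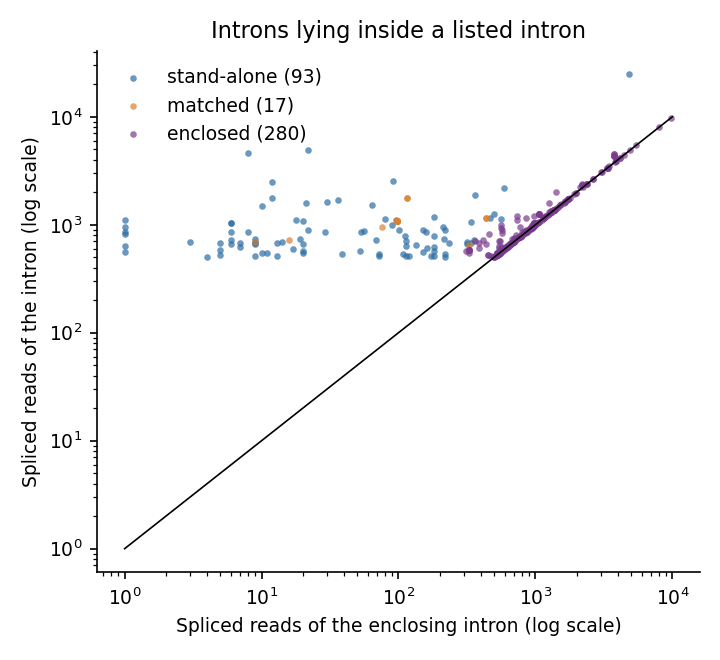
Spliced reads, summed over 6 libraries, of introns with no unspliced read that lie inside another listed intron (vertical axis, log scale) against those of the enclosing intron (horizontal axis, log scale). Points on the line have equal counts; of the 280 enclosed introns 168 have 99% or more of their reads in the enclosing intron and the others lie above the line, and the point at the top right is Zfp978, with 24647 reads against 4851.

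Several of the matched introns came in runs across gene families with close copies, whose reads may be shared between loci. The cause of the equal counts was not tested. Slc22a29, of the solute carrier family of organic ion transporters, had 8 of its 9 introns in the set, each with 2604 spliced reads. In each of them the reads were 216, 545 and 753 in wild type and 691, 34 and 365 in knockout, for replicates 2, 3 and 5. Intron 6 of its neighbour Slc22a28 had 2606, with 216, 545, 755, 691, 34 and 365. The 6 introns of Gsta2, a glutathione transferase gene, had 568 to 580 reads each, and the 9 introns of Gm15319 had 1081 to 1083. Along Dnmt3b-ps1, a pseudogene of the DNA methyltransferase gene Dnmt3b, 3 introns had 7181, 6708 and 6629 reads.

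Some of the matched introns varied widely between libraries. Intron 3 of Gm32200 had 2, 0 and 158 reads in wild type and 543, 4 and 1 in knockout, so that 1 library of each group held nearly all of them. In all, 45 of the 126 matched introns (35.7%) had a level over 10 times higher in the highest than in the lowest library, against 14 of 280 enclosed (5%) and 23 of 1899 stand-alone introns (1.21%). Counts of calls and the share of spliced reads are therefore also given for the stand-alone introns.

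Zfp978, a zinc finger gene in a cluster of close copies, had the most spliced reads of the set, 24647 at intron 1 (chr4:147359351-147360001, minus strand). An enclosing intron held 4851 of them, and the assignment of reads among the copies is uncertain. Next among the stand-alone introns came genes expressed in most cell types. Intron 10 of Pfkl, which encodes the liver subunit of phosphofructokinase, had 6990 reads (chr10:77994201-77995243, minus strand). Intron 7 of Fxr1, an RNA-binding protein related to the fragile X protein, had 6432 (chr3:34047060-34047631, plus strand). Intron 2 of Capza1, a subunit of the protein that caps actin filaments, had 5390 (chr3:104842713-104844917, minus strand), and intron 1 of Copb2, a subunit of the COPI vesicle coat, had 4979.

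In 2 of these strongly spliced introns almost no intronic base was covered. Intron 5 of Snd1, which encodes an RNA-binding protein with staphylococcal nuclease domains, had 5386 spliced reads (chr6:28526214-28526908, plus strand). They were 407, 1195 and 1484 in wild type and 1065, 560 and 675 in knockout. In every library 1 of its 695 bases was covered. By the limit above, with its reservations, a count of 0 unspliced reads there allows an index of up to 0.0278%. Intron 9 of Ptk7, a receptor-like protein of Wnt signalling, had 4906 spliced reads (chr17:46579170-46579292, minus strand), and 2 of its 123 bases were covered in every library.

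The covered fraction is the share of an intron's bases with a read over them, by the name of its column. It counts reads anywhere in the intron, and its median was higher where more unspliced reads were counted at the ends, going from 0.0282 at 0 to 0.0563 at 1, 0.0879 at 2 and 0.181 at 5. Over the 2305 introns it had an interquartile range of 0.00718 to 0.0657, and over the 69079 others the median was 0.535. In stand-alone introns the median was 0.0318. In 671 of the 2305 (29.1%) at most 5 bases were covered in every library, against 469 of the others (0.679%), and 517 of these 671 were stand-alone. Coverage and unspliced reads at the ends come from the same intronic RNA, so this comparison describes the set and is no independent test of it.

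No unspliced read at the ends did not always mean an uncovered intron. Intron 1 of Uimc1, which encodes a ubiquitin-binding DNA repair protein, had 511 spliced reads and a mean covered fraction of 0.722, with 3512 to 6020 of its 6915 bases covered (chr13:55093282-55100196, minus strand). Intron 19 of Scaf8, an RNA-processing factor, had 1062 spliced reads and a mean covered fraction of 0.443. Intron 21 of Psme4, a proteasome activator, had 2205 and 0.436. These 3 introns had reads inside them and 0 across either boundary in any of the 6 libraries.

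The mean covered fraction of the 2305 introns was 0.0272, 0.0599 and 0.0759 in wild-type replicates 2, 3 and 5, and 0.0511, 0.0366 and 0.0414 in the knockout replicates. The groups overlapped, with means of 0.0543 ± 0.0248 and 0.043 ± 0.00737 (SD, n = 3). Wild-type replicate 2, the library with the fewest spliced reads (19801687), was lowest, and wild-type replicate 5, with the most (63623214), was highest. Introns with no covered base numbered 530, 373 and 341 in wild type and 402, 451 and 426 in knockout. Per intron, the covered fraction was higher in every knockout than in every wild-type library at 30 introns (1.3%) and lower at 66 (2.86%). Over all 71384 introns these shares were 1.08% and 3.65%. The part of library depth in these values was not tested.

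**Figure D3:**
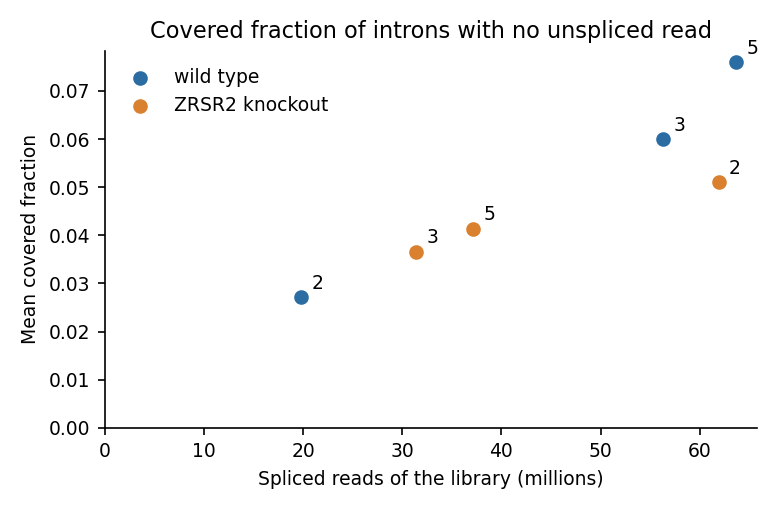
Mean covered fraction of the 2305 introns (vertical axis) against the spliced reads of the library (horizontal axis), 1 point per library with its replicate number. Wild-type libraries span 0.0272 to 0.0759 and knockout libraries 0.0366 to 0.0511.

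The introns were longer than the others. Their median length was 1581 bases, with an interquartile range of 632 to 3638, against a median of 1131 for the others. Stand-alone introns also had a median of 1581. Introns with 1, 2, 3, 4 and 5 unspliced reads had median lengths of 1573, 1556, 1557, 1625 and 1522 bases. Introns with no unspliced read made up 1.5% of introns under 100 bases (75 of 4989), 3.41% at 1000 to 2999 bases and 9.88% at 50000 bases or more (34 of 344). Among introns with 500 to 749 spliced reads, where the depth of splicing is alike, the shares were 3.66%, 8.13% and 14.9%. In these classes the median number of unspliced reads was 26, 13 and 5. No test was made, because spliced and unspliced reads chose the introns.

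**Figure D4:**
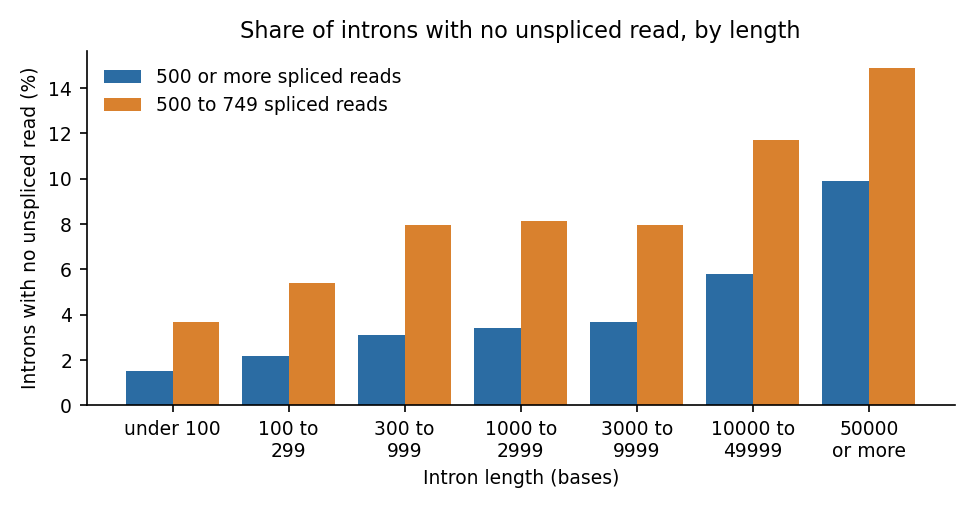
Percentage of autosomal introns with no unspliced read (vertical axis) by intron length in bases (horizontal axis), for introns with 500 or more spliced reads and for those with 500 to 749. The share is 1.5% and 3.66% under 100 bases, and 9.88% and 14.9% at 50000 bases or more.

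The longest stand-alone introns were intron 26 of Pard3 with 118445 bases, intron 1 of Parva with 116076, intron 12 of Babam2 with 100196, intron 1 of Fto with 88186 and intron 1 of Smoc1 with 77448. Pard3 encodes a cell polarity protein, Parva an adaptor of integrin adhesions, Babam2 a subunit of a DNA repair deubiquitinase complex, Fto an RNA demethylase and Smoc1 a secreted matrix protein. The Fto intron had 1738 spliced reads and 1132 to 3301 covered bases. Among the shortest were intron 2 of B4galt2 with 70 bases, intron 23 of Itpr3 and intron 20 of Fanca with 76 and intron 18 of Trpm7 with 78. The longest and shortest of all were enclosed, in Cadm1 with 192301 bases and in Nbn with 28.

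First introns made up 10.1% of the introns and last introns 6.29%, against 10.6% and 10.8% of the others. In stand-alone introns the shares were 6.25% (95% Wilson interval 5.24 to 7.43) and 3.71% (2.95 to 4.66). In enclosed introns they were 34.7% and 18.8%. The relative position of an intron's midpoint was taken along the RefSeq span of its gene, from 0 at the gene start to 1 at its end. Its median was 0.557 in stand-alone introns and 0.631 in the others. A splice site was shared with another listed intron in 8.63% of the set, in 4.05% of the stand-alone introns and in 10.7% of the others. It was shared in 41.8% of the enclosed introns. The others were not limited to stand-alone introns, so these comparisons are not like for like. Host genes of stand-alone introns had a median of 12 other introns with at least 500 spliced reads, against 6 in other genes. First and last introns can be a smaller share where a gene has more introns, and this part was not tested. Unspliced reads are counted per boundary, since introns that share a boundary had the same count there in all 6 libraries at 7910 of 7910 starts and 7979 of 7979 ends.

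A gene could be assigned to 2227 of the introns, and they fell in 1285 genes. Of these, 803 held 1, 262 held 2 and 220 held 3 or more. Protein-coding genes took 94.7% of the assigned introns, against 99.1% of the others, and long noncoding RNA genes 85 introns (3.82%, against 0.546%). Of those 85, 61 were enclosed and 12 stand-alone, and among assigned stand-alone introns 99.2% were in protein-coding genes. In 68 genes every intron with at least 500 spliced reads was in the set, and 22 of these had 2 or more, of which 1 gene had stand-alone introns alone.

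The genes that held the most included large genes with many introns. Ubr4, which encodes a giant ubiquitin ligase, and Usp34, a deubiquitinase, each held 10, of 67 and of 60 introns with at least 500 spliced reads. Pard3 held 9 of 23, Utp20, a factor of ribosomal subunit assembly, 8 of 60, and Cast, the calpain inhibitor calpastatin, 8 of 30. Genes with few introns, where those in the set were matched, held as many, 9 of 9 in Gm15319 and 8 of 9 in Slc22a29. Clasp1, Acaca and Cux1 also held 8 each, of 44, 44 and 32. All 10 in Ubr4 and in Usp34 and all 8 in Utp20 were stand-alone, and 7 of those in Pard3 and 7 in Cast. In Pard3 an exon-skipping pair shows the counting: intron 12 had 563 reads, and introns 11 and 13, which lie within it, had 998 and 929.

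The other introns of the host genes held fewer unspliced reads than those of other genes. Pooled over 16678 introns of 1217 host genes, the missplicing index was 1.44, 1.32 and 1.29% in the wild-type libraries. In the knockout libraries it was 1.25, 1.47 and 1.4%. Over 52063 introns of 6857 other genes the wild-type values were 1.61, 1.64 and 1.52%, and the knockout values 1.47, 1.8 and 1.63%. The host genes were lower in each of the 6 libraries. They had a median of 12 such introns and 967 spliced reads per intron, against 6 and 1779 in the other genes, and the part of these differences in the index was not tested.

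The share of introns in the set differed between pathways, as did spliced reads, and the share was smaller where spliced reads were more. Of the introns of cytosolic ribosomal protein genes with at least 500 spliced reads, 0 of 336 were in the set, and their median was 82696 spliced reads. The counts were 0 of 266 in chaperonin and heat shock genes, 1 of 377 in oxidative phosphorylation, 1 of 308 in the mitochondrial ribosome, 2 of 309 in the proteasome, 2 of 389 in aminoacyl tRNA synthetases and 7 of 598 in translation factors. In the same order the median spliced reads were 19091, 7020, 3176, 7953, 5249 and 7936, against 1425 for all introns with at least 500. Splicing factor genes had 3 of 654, the core spliceosome component Prpf8 with 4028 reads, Prpf6 with 1850 and the kinase Prpf4b with 1252. The median of the 654 was 6026 spliced reads. Extracellular matrix genes had 23 of 306 (7.52%), above the 3.23% of all introns, with a median of 1619 spliced reads. The 23 lay in 7 genes and included introns of the laminin chains Lamc1 with 2545 reads, Lamb1 with 1600 and Lama5 with 1266. Cytoskeleton genes had 12 of 498 with a median of 1783 spliced reads, and glycolysis genes 5 of 177 (2.82%) with a median of 4669. No test was made between the lists, and the part of read depth in these shares was not tested.

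Genes listed for a known U12-type intron had 6 of their 423 introns in the set (1.42%). The 423 had a median of 2028 spliced reads, and over all introns with 1500 to 2499 spliced reads the share was 1.51%. The 6 included introns of Ipo9, an importin, with 4553 reads, and of Vac14, a scaffold of phosphoinositide metabolism, with 1932. Whether these introns are themselves of the U12 type could not be read, as no genome was used. None of the 6 passed the test of spliced reads, with a median log2 change of 0.05 from wild type to knockout.

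Zrsr2 itself, as a check on the labels, had 32.7, 39.9 and 32.5 CPM (spliced reads per 1000000 of the library, with TMM factors) in the wild-type libraries. The knockout libraries had 0.544, 0.384 and 0. Its log2 change was -6.70 (adjusted p = 0.0212, edgeR quasi-likelihood test), and the call was lost on omitting wild-type replicate 2 (0.141) or 5 (0.0853) or knockout replicate 3 (0.412, all adjusted p). Of 10 embryonic stem cell markers 9 were measured, with a summed level of 2140 to 2350 CPM in wild type and 2150 to 2430 CPM in knockout. Fibroblast or feeder markers, of which 4 of 7 had a mean of at least 1 CPM and Lum was under 0.1, summed to 67.5 to 307 and 32 to 349. Trophoblast markers summed to 77.6 to 146 and 70.3 to 76.3, and endoderm markers to 2.19 to 3.66 and 1.18 to 1.86.

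The 2305 introns took 0.924, 0.9 and 0.983% of the autosomal spliced reads of wild-type replicates 2, 3 and 5, and 0.848, 0.895 and 0.891% of those of the knockout. The means were 0.936 ± 0.0425% and 0.878 ± 0.0262% (SD, n = 3). Each wild-type library lay above each knockout library, the closest being 0.9 and 0.895%. An exact permutation test of 3 against 3 libraries cannot go below p = 0.1, and none was made over the set. The difference of the means, knockout minus wild type, was -0.0579 percentage points, and -0.0587 for the stand-alone introns. In bulk RNA, fewer cells of a type and less RNA per cell cannot be told apart.

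Intron by intron, spliced reads were tested in 2300 of the 2305 (5 were below the count filter, none of them stand-alone). After knockout of Zrsr2, 4 were called lower and 0 higher (0.174%). Of the 133853 introns tested 0.0493% passed, 0.0426% lower and 0.00672% higher (edgeR quasi-likelihood test, Benjamini-Hochberg adjusted over all introns). All 4 were stand-alone and all 4 lay in Cep170. At an unadjusted p under 0.05 there were 266 (11.6%, against 9.71% of all introns). The median log2 change was -0.05 for the set, -0.06 for its stand-alone introns and -0.01 for all introns. Below 0 were 1329 (57.8%, against 51.9%), and 2055 (89.3%, against 85.3%) lay between -0.5 and 0.5. The introns tested were not limited to autosomal ones with at least 500 spliced reads, and include introns with fewer. Shares of the set and of all introns or genes tested, here and below, thus differ in read depth, and its part was not tested.

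Cep170 encodes a centrosomal protein that associates with the mother centriole and with microtubules. It has 17 introns with at least 500 spliced reads, and 5 of them had no unspliced read. Intron 6 (chr1:176782411-176782496, minus strand) had 59, 255 and 215 spliced reads in wild type and 35, 25 and 17 in knockout. The wild-type mean was 3.58 ± 0.934 CPM, and the knockout mean 0.623 ± 0.169 CPM (SD, n = 3). The groups did not overlap, and the log2 change was -2.55 (SE 0.27, adjusted p = 0.00239, edgeR).

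Intron 11 of Cep170 (chr1:176756984-176758396) had 59, 259 and 211 reads in wild type and 34, 28 and 30 in knockout, a log2 change of -2.26 (SE 0.26, edgeR adjusted p = 0.00498). Intron 15 (chr1:176739170-176739918) had 68, 271 and 215 reads against 49, 46 and 38, a log2 change of -1.81 (edgeR adjusted p = 0.0281). Intron 16 (chr1:176737622-176739080) had 80, 303 and 230 against 80, 53 and 53, a log2 change of -1.52 (edgeR adjusted p = 0.0295). Scaled to depth, each of the 3 was lower in every knockout than in every wild-type library. Intron 17 (chr1:176736896-176737527) had 100, 297 and 279 against 94, 56 and 91, and with a log2 change of -1.30 it missed the threshold (edgeR adjusted p = 0.0594).

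The other introns of Cep170, with 1 to 92 unspliced reads, had log2 changes of -2.70 to -1.61. All 17 introns had log2 changes below 0, and 16 of the 17 passed the test. Summed over the gene, Cep170 had 69.8 ± 14.7 CPM in wild type and 19.3 ± 3.22 in knockout (SD, n = 3), a log2 change of -1.85 (SE 0.19, edgeR adjusted p = 0.0425). All 5 introns without unspliced reads were lower in knockout, and 4 of the 5 passed the test, as did the gene. Leaving out knockout replicate 3 brought the adjusted p of introns 11, 15 and 16 to 0.0613, 0.0801 and 0.249. The call of the gene was lost in 4 of the 6 fits that left out 1 library, where the edgeR adjusted p was 0.141 and 0.0873 on omitting wild-type replicates 2 and 5, and 0.101 and 0.412 on omitting knockout replicates 2 and 3. Introns 15 and 16 also missed the threshold without wild-type replicate 2 (0.0595 and 0.073) and without knockout replicate 2 (0.143 and 0.164).

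**Figure D5:**
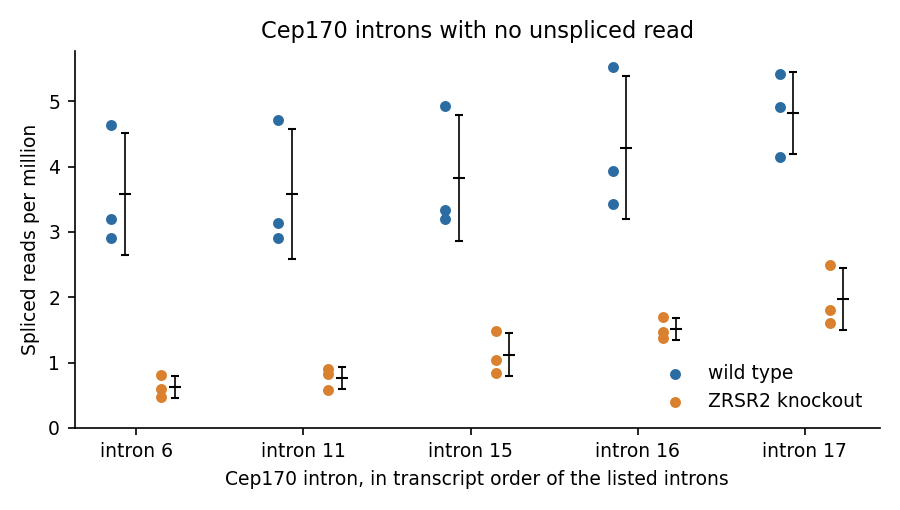
Spliced reads in CPM (vertical axis) of the 5 Cep170 introns with no unspliced read, numbered in transcript order (horizontal axis). Points are libraries, 3 per group, and bars are mean ± SD; in intron 6 the means are 3.58 in wild type and 0.623 in knockout.

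At the level of genes, 1 of the 1285 host genes was called lower, Cep170, and 0 were called higher (0.0778%). Of the 16943 genes tested 0.0177% passed (edgeR). At an unadjusted p under 0.05 there were 172 (13.4%, against 9.93% of all genes). The median log2 change of host genes was -0.06, and that of all genes -0.01. Whether an intron changed against the rest of its own gene (intron usage) was tested in 2198, and 0 passed in either direction. Of 130810 introns tested 0.00229% passed, 0.000764% higher and 0.00153% lower (edgeR diffSpliceDGE). At an unadjusted p under 0.05 there were 4 (0.182%), against 0.29% of all introns. That is far below the share such a threshold passes when nothing changes, so the usage test was conservative here. Its 0 calls do not show that usage was unchanged. Among stand-alone introns the counts were also 1 host gene and 0 introns by usage. The DESeq2 Wald test called 26 introns of the set (1.14%, against 0.469% of all introns it tested) and 33 host genes (2.58%, against 1.63% of all genes).

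Several other introns of the set had large differences that did not pass the test. They were picked out after their values were seen. Intron 4 of Pfkp, the platelet subunit of phosphofructokinase, had 11.4 ± 2.63 CPM in wild type and 5.35 ± 0.788 in knockout, a log2 change of -1.09 (edgeR adjusted p = 0.0833). Intron 1 of Egln1, the oxygen-sensing prolyl hydroxylase whose 5′ site is printed above, had 5.08 ± 1.82 and 2.25 ± 0.45, and intron 2 of P4ha1, a collagen prolyl hydroxylase, 3.55 ± 1.85 and 1.01 ± 0.155. For P4ha1 the reads were 88, 79 and 329 in wild type and 69, 30 and 32 in knockout. Scaled to depth they were 4.32, 1.44 and 4.89 CPM in wild type and 1.18, 0.962 and 0.88 CPM in knockout. Wild-type replicate 3 thus lay near the knockout levels. The 5 glycolysis introns lay in 4 genes and had a median log2 change of -1.09, and 0 of the 5 passed. The 2 in Pfkp had -1.09 and -1.20, that in Hk1 -1.15 and that in Pfkl -0.88. The intron in Pfkm went the other way, at 0.14.

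In the other direction, intron 2 of the interferon-induced gene Oas1a had 15, 18 and 13 reads in wild type and 564, 155 and 20 in knockout, a log2 change of 3.88 (edgeR adjusted p = 0.174). Knockout replicates 2 and 3 were high and replicate 5 was near the wild-type levels. Oas1a belongs to a family of close copies, and its counts are uncertain to that extent. Intron 1 of Plac8 had 2.18 ± 0.31 CPM in wild type and 4.83 ± 1.18 in knockout, with no overlap of the groups and an edgeR adjusted p of 0.109.

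For the introns with the most spliced reads, levels in the groups were as follows. Snd1 intron 5 had 21.3 ± 1.13 CPM in wild type and 18.2 ± 0.299 in knockout (SD, n = 3), Capza1 intron 2 had 20.5 ± 1.99 and 19.5 ± 0.654, and Copb2 intron 1 had 18.5 ± 1.7 and 18.5 ± 1.8. Fxr1 intron 7 had 25.6 ± 2.35 and 23.5 ± 2.6. None of these 4 passed the test, with edgeR adjusted p from 0.55 at Snd1 to 1 at Copb2. Pfkl intron 10 had 756, 1259 and 2638 reads in wild type and 1213, 456 and 668 in knockout, or 33.1 ± 8.87 and 17.9 ± 3.08 CPM, and did not pass either (log2 change -0.88, edgeR adjusted p = 0.213).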

How the data were processed

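RNA-seq of 6 libraries was deposited as 1 table per library, on build mm10 per the submitters' processing notes. The aligner, the counter and the intron models used are not stated in the labels or headers. Each table holds the authors' read counts per intron (unspliced reads at its lower and higher end, spliced reads), the deposited covered fraction and the deposited missplicing index in percent. The index equalled its formula in all 1319670 values to within 0.01. Starts were read as counted from 0, since 838 of 847 introns then began with GT. Genes came from RefSeq spans and strand.

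Tests of spliced counts used edgeR 4.0.16 under R 4.3.3 (TMM, filterByExpr, quasi-likelihood, Benjamini-Hochberg threshold 0.05) per intron, per gene and as usage within a gene, on all introns, with DESeq2 1.42.0 as an alternative. The code was tested on simulated data. Spliced reads per library numbered 19801687 to 63623214. The introns, gene lists and rules for naming were chosen with earlier results of these data known. Named were introns past a test, those with the most reads, the longest and shortest, the genes with most of these introns, introns at the threshold, those with the highest and lowest covered fraction and up to 3 per gene list; any further intron is marked in the text as picked with its values in view. The classes enclosed, matched and stand-alone, and examples given for them, were also defined after the data were seen. The labels do not say whether replicate numbers pair the libraries, and the main tests used no pairing. Deviations of same-numbered libraries from their group means correlated at 0.063, 0.067 and 0.016 over 16943 genes. With 3 libraries per group these values cannot settle whether the libraries were made in pairs. Some introns that these rules name are not reported here.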

Additional observations from a re-analysis of the deposited data

How the results depend on the processing

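Counts of called introns depended on the test and the libraries, and so did the balance of higher and lower calls. The 4 introns called lower (0.174% of the set, 0.0493% of all introns) became 34 (7 higher) with the replicate number as a block (1.48%, 0.342%) and 26 (2 higher) with the DESeq2 Wald test (1.14%, 0.469%), and 0 among introns with at least 1000 spliced reads. With 1 library left out they were 1 to 58: 12 without wild-type replicate 2 (0.521%, 0.0517%) and 58 (20 higher) without wild-type replicate 3 (2.52%, 1.26%), and, on the knockout side, 1 without replicate 3 (0.0434%, 0.0198%) and 14 (8 higher) without replicate 5 (0.607%, 0.197%). Host genes called changed from 1 to 33 (8 higher) with the Wald test (2.58%, against 1.63% of all genes) and to 0 to 6 with 1 library left out, with 3 (2 higher) without knockout replicate 5. Intron usage went from 0 to 0 to 1, the 1 higher without wild-type replicate 5. The cause was not tested. Intron 6 of Cep170 passed in all 10 alternatives, intron 11 in 9, introns 15 and 16 in 7 each, the gene in 6 and Zrsr2 in 7. Whether replicate numbers pair the libraries is not stated, so the block result is given as an alternative only. The difference in the share of spliced reads, knockout minus wild type, was -0.0579 percentage points, -0.108 for introns with at least 250 spliced reads, and -0.0757 to -0.0344 with 1 library left out. That in covered fraction was -0.0113, and -0.0248 to -0.000506. First introns were 8.41% without introns that share a site and 6.25% among stand-alone introns, an alternative chosen after seeing the data, where last introns were 3.71% and shared sites 4.05%. Depth limits the set: at 500 spliced reads a count of 0 allows an index of up to 0.299%.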
